A study of Mus musculus with 4 samples.

Results

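The axonal transport motors were followed here as 10 gene names, Kif1a, Kif1b, Kif3a, Kif5a, Kif5b, Kif5c, Klc1, Dync1h1, Dync1i1 and Dctn1, out of 18674 names in the table of lumbar spinal cord RNA. They were chosen by name, as subunits of the motors that carry cargo along axons, and all 10 were present. A name with several transcript rows was given the mean of its rows. Levels are RPKM (reads scaled to transcript length and library size), a unit per length, so that levels of different genes can be set side by side. The unit was inferred from the values.

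The question was how the RNA of these motors differs in a mouse model of amyotrophic lateral sclerosis and after spermidine (SD), a natural polyamine. G93A mice carry a human SOD1 transgene with the mutation that gives the line its name, in the high-expressing H1 strain bred with B6/SJLF1, and WT mice were their controls. Mice of either genotype received SD or vehicle, which makes 4 conditions. SD was given at 5 mg/kg into the peritoneum, 4 times a week by the labels, which place every sample at day 30. The RNA sequencing methods give death at 100 days of age after 30 days of treatment, and the study's text differs between places on the age at the first dose, the doses per week and the vehicle (PBS or saline), so that the schedule behind these libraries is not settled. The transgenic animals used were male, the transgene is active in many cell types and not in motor neurons alone, and the human transgene RNA was not analysed here. Each condition had 1 library, and the number of animals behind a library is not given in the sources used here. No spread between animals can therefore be estimated, no p-value is given, and every ratio compares libraries and not conditions.

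Kinesins and cytoplasmic dynein are motor proteins that walk along microtubules, the former mostly outward to the nerve terminal and the latter back to the cell body. Kinesin-1 is built of heavy chains from Kif5a, Kif5b or Kif5c and light chains such as Klc1, which bind cargo. Kinesin-2 holds Kif3a, kinesin-3 motors include Kif1a and Kif1b, and dynein works with dynactin, its cofactor. Motor neurons have some of the longest axons of the body and depend on this traffic, and mutations in KIF5A and DCTN1 are known in human motor neuron disease.

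The libraries were alike in depth, estimated at 36800000 to 38600000 read pairs, and between 2928 and 55342 estimated pairs lay behind a row of a member. Pairs are assumed, since the sources used here do not say whether both ends of a fragment were read. At counts of this size, counting error is small beside the genotype differences, whereas the error between animals is unknown. The tissue label was checked against its markers. All 7 Hox genes of the lumbar cord were detected in each library, and none of 8 skeletal muscle genes had a mean of 1 RPKM. The Hox genes summed to 46.6 and 47.1 RPKM in WT and to 33.5 and 31.4 RPKM in G93A. With vehicle, 7 of 7 were lower in G93A, with a median log2 ratio of -0.49, and with SD 6 of 7, with -0.55. The median log2 ratios of the motors were -0.42 and -0.55 in these comparisons, and the part of regional makeup in them was not tested.

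All 10 motor genes were lower in both G93A libraries than in both WT libraries, with no overlap for any member, compared to 35.8% of the 8847 names whose mean reached 5 RPKM. The 10 genes summed to 1065 RPKM with vehicle and 1067 with SD in WT, and to 784 with vehicle and 679 with SD in G93A. The WT libraries were thus alike, and the treated G93A library lay lowest. In whole tissue, fewer cells of a type and less RNA per cell cannot be told apart.

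**Figure D1:**
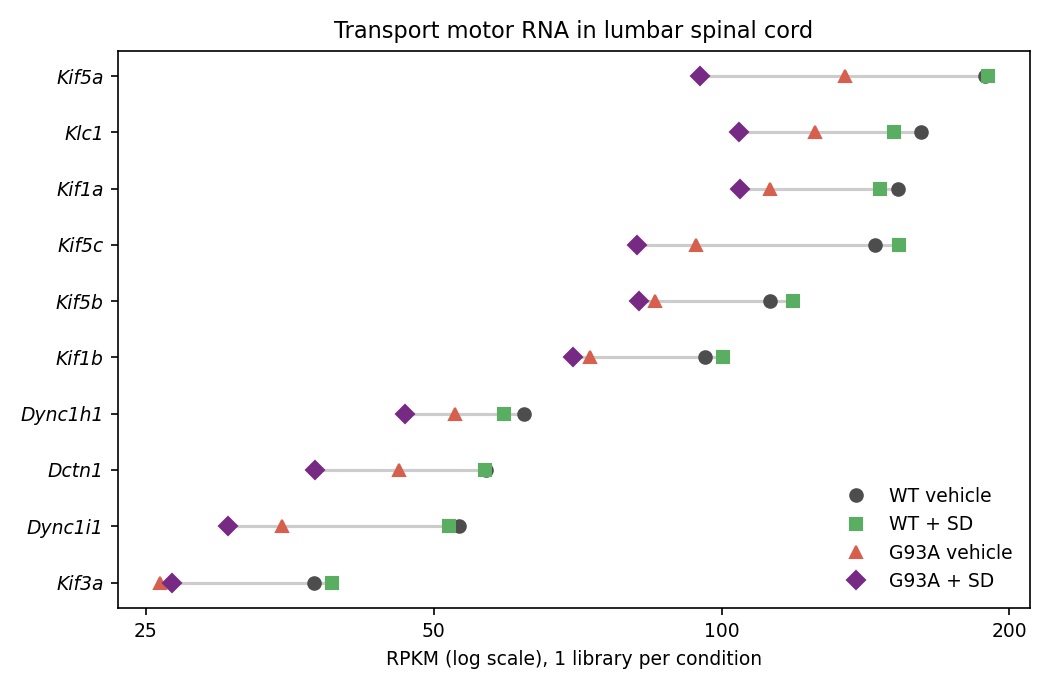
Level of each motor gene in RPKM on a log scale, 1 point per library, ordered by the mean over the 4 libraries, with a grey line from the lowest to the highest library. The 2 G93A points lie left of the 2 WT points for all 10 genes, and Kif5a shows the widest gap between the G93A libraries, 135 against 94.9 RPKM.

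Kif5a, the neuronal heavy chain of kinesin-1, was the most abundant member in 3 of the 4 libraries. In WT its level was 188 RPKM with vehicle and 190 with SD, and in G93A it was 135 and 94.9. The WT libraries were alike, and the 2 G93A libraries stood apart from each other as well as from WT. In G93A + SD, Kif5a ranked below Kif1a and Klc1 by the mean of rows, while its highest row, at 120.4 RPKM, lay above the highest rows of Klc1 (119 RPKM) and Kif1a (104.6 RPKM).

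Kif5c, the other heavy chain enriched in neurons, was at 145 RPKM in WT vehicle and 153 in WT + SD. It was at 94.1 RPKM in G93A vehicle and 81.6 in G93A + SD, far below both WT levels. Kif5b, the heavy chain found in most cell types, was at 112 RPKM with vehicle and 119 with SD in WT, then at 85.2 with vehicle and 82.0 with SD in G93A, and this order holds wherever 4 levels follow each other. Its G93A libraries lay close together. Klc1, the main light chain here, was at 162, 152, 125 and 104 RPKM, with the treated G93A library lowest.

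Kif1a, the neuronal kinesin-3 that carries synaptic vesicle precursors, was at 153, 146, 112 and 104 RPKM. Kif1b, its relative that carries mitochondria or synaptic vesicle precursors depending on the isoform, was at 96.0, 100.4, 72.9 and 70.0 RPKM. Kif3a, a kinesin-2 subunit also needed for cilia, was at 37.5, 39.2, 25.8 and 26.6 RPKM and was the least abundant member in every library. It was the only member for which SD gave the higher of the 2 G93A levels.

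Of the retrograde motor, Dync1h1, which encodes the heavy chain that does the walking, was at 62.1, 59.2, 52.6 and 46.7 RPKM. Dync1i1, the neuronal intermediate chain that links dynein to dynactin, was at 53.2, 51.9, 34.7 and 30.4 RPKM. Dctn1, which encodes p150Glued, the microtubule-binding arm of dynactin, was at 56.7, 56.5, 46.0 and 37.6 RPKM. Dctn1 and Dync1i1 were close in WT and farther apart in G93A, where Dync1i1 lay lower.

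The sequence before the start site is shown for 4 of the members. Kif5c and Dync1i1 had the lowest ratios of G93A vehicle to WT vehicle, and Klc1 and Dync1h1 had smaller differences. Promoter entries from RefSeq (GRCm38.p6) matched 8 of the 10 members, all but Kif5a and Kif5b. The 250 bases before the first start are given 5′ to 3′ on the gene's strand, here the plus strand for all 4. They lie at chr2:49619036-49619285 for Kif5c, chr12:111758618-111758867 for Klc1, chr12:110601145-110601394 for Dync1h1 and chr6:5725389-5725638 for Dync1i1. Capitals mark matches, on either strand, to the cAMP response element TGACGTCA, the GC box GGGCGG, the CCAAT box CCAAT, the NRF1 element GCGCANGCG and the TATA box TATAAA.
Kif5c: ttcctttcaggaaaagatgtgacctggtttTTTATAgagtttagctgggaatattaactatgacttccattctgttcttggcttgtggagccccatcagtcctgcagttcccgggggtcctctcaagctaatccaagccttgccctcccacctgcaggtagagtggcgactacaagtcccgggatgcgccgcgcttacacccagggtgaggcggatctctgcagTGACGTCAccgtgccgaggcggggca
Klc1: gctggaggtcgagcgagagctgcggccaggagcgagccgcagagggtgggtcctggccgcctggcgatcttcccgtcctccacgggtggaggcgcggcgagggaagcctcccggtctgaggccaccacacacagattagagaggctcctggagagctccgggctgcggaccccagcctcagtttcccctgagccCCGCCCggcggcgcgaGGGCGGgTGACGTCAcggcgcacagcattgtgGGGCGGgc
Dync1h1: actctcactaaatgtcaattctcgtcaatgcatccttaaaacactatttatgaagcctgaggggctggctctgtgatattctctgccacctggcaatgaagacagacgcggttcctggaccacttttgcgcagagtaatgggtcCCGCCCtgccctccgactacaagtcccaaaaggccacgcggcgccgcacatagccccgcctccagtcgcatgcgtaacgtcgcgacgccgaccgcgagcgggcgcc
Dync1i1: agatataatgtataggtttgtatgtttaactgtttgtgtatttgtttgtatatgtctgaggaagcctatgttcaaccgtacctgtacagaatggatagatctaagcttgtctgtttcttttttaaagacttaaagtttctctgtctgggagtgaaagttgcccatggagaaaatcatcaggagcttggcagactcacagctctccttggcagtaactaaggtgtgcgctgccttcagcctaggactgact

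The letters TGACGTCA were in 2 of the 8 members' windows, beginning 26 bases before the start of Kif5c and 33 bases before that of Klc1, compared to 478 of 27025 genes with an entry (1.77%). GC boxes were in 4 of the 8 (Kif1b, Kif3a, Klc1 and Dync1h1) and in 35.4% of all genes. CCAAT was in 2 (Kif1b and Kif3a) and in 37.5% of all genes, the NRF1 letters were in Kif3a and in 5.86%, and TATAAA was in Kif5c and in 14.3%. The Kif5c match to TATAAA begins 220 bases before the start and lies on the opposite strand. In Kif3a a GC box and a CCAAT box overlapped. None of the 5 motifs was in the Dync1i1 window, which held 2 CpG, compared to 11 for Kif5c, 22 for Dync1h1, 25 for Klc1 and a median of 6 over all genes. No letters searched were shared by all 8 members. For Dctn1, the windows at chr6:83179339-83179588 and chr6:83185696-83185945 lie within the gene's span, so the sequence before its outermost start was not searched. The part of promoter sequence in the motors' ratios was not tested. The motifs were chosen after the sequences had been read, and a match is a description of letters, not of a factor's binding.

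The first comparison, G93A vehicle against WT vehicle, asks how the mutant cord differs without treatment. All 10 members were lower in G93A, by 15.3% for Dync1h1 at the least and by 34.9% for Kif5c at the most. Of the 8847 names at 5 RPKM or more, 45.9% were lower. The members' median log2 ratio was -0.42, compared to 0.03 over those 8847 names. Kif5c (log2 ratio -0.62) and Dync1i1 (-0.62) were lower by at least 1.5-fold, 2 of 10 members, compared to 3.80% of names at 5 RPKM or more and 10.5% of all names. Around the threshold, Dync1i1 was 1.53-fold lower and Kif3a 1.45-fold lower, and with the libraries scaled by their median ratios Kif3a passed too (log2 ratio -0.60). At 1.2-fold or more, 9 of 10 members were lower, all but Dync1h1, compared to 18.1% of names at 5 RPKM or more.

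Placed among the 8847 names, the members covered a range. Kif5c and Dync1i1 stood near the low end, where 2.88% and 2.92% of names had that ratio or a lower one. Kif3a (log2 ratio -0.54) stood at 5.06% and Kif5a (-0.49) at 6.64%. Kif1a (-0.44), Kif5b (-0.40), Kif1b (-0.40) and Klc1 (-0.37) stood between 8.13% and 11.7%. The dynein heavy chain stood highest, since 20.0% of names had a ratio as low as that of Dync1h1 (-0.24), and Dctn1 (-0.30) stood at 15.6%.

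The second comparison, G93A + SD against WT + SD, asks the same of the treated animals and rests on the other pair of libraries. All 10 members were again lower, by 21.1% for Dync1h1 at the least and by 50.1% for Kif5a at the most, compared to 47.8% of names at 5 RPKM or more that were lower by any amount. The members' median log2 ratio was -0.55, compared to 0.02 over those names. Kif5a (-1.002), Kif5c (-0.91), Dync1i1 (-0.77) and Dctn1 (-0.59) were lower by at least 1.5-fold, 4 of 10 members, compared to 7.79% of names at 5 RPKM or more and 12.8% of all names. Dctn1 was 1.503-fold lower and Kif3a, next outside the threshold, 1.47-fold lower, and a pseudocount of 1 RPKM took Dctn1 below the threshold (log2 ratio -0.57). With the libraries scaled by their median ratios, 8 members passed the threshold, compared to 10.1% of names at 5 RPKM or more scaled alike. All 10 members were lower by 1.2-fold or more, compared to 23.2% of names.

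Kif5a, with 1.19% of names as low or lower, and Kif5c, with 2.03%, lay at the low end. The other 6 members, Kif3a (-0.56), Klc1 (-0.54), Kif5b (-0.53), Kif1b (-0.52), Kif1a (-0.49) and Dync1h1 (-0.34), had smaller ratios in size. Dync1h1 was again the member nearest to no difference.

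**Figure D2:**
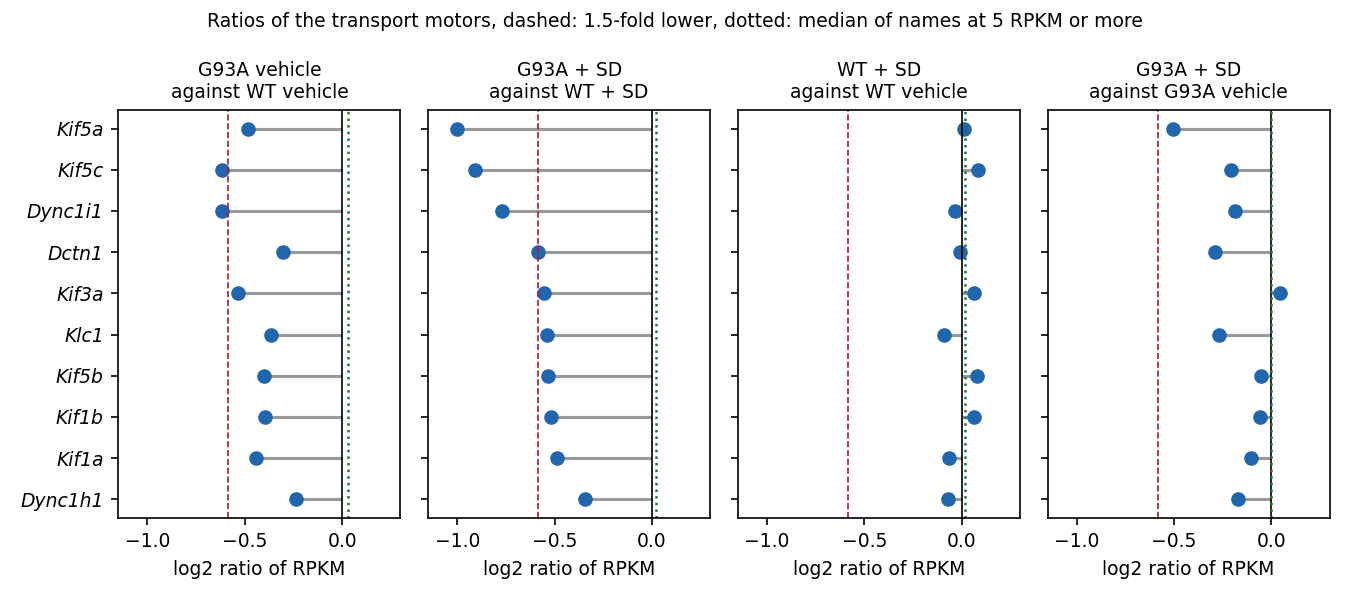
Log2 ratio of RPKM for each motor gene in the 4 comparisons, with the 1.5-fold line dashed and the median of names at 5 RPKM or more dotted. In the genotype panels every point lies below 0, from -0.62 to -0.24 with vehicle and from -1.002 to -0.34 with SD. In WT the SD ratios lie between -0.09 and 0.08, and in G93A Kif5a lies farthest out at -0.50.

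The third comparison, WT + SD against WT vehicle, asks what SD does in healthy cord. No member differed by more than 1.07-fold, the ratio of Klc1, whose log2 value was -0.09. The counts were 5 lower and 5 higher, compared to 43.5% lower and 56.5% higher of names at 5 RPKM or more, and the members' median log2 ratio was 0.00, compared to 0.02. The kinesin-1 heavy chains were among the higher members, with Kif5c at 0.08, Kif5b at 0.08 and Kif5a at 0.01. None of the members reached 1.2-fold, compared to 3.61% of names lower and 2.35% higher by that much, nor 1.5-fold, compared to 0.610% of names lower at 5 RPKM or more and 8.82% of all names.

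The fourth comparison, G93A + SD against G93A vehicle, asks what SD does in the mutant. Of the 10 members 9 were lower with SD, compared to 50.1% of names at 5 RPKM or more, and the members' median log2 ratio was -0.18, compared to -0.0004. No member reached 1.5-fold, compared to 0.622% of names lower by that much and 7.46% of all names. At 1.2-fold, 3 members were lower, compared to 5.93% of names. These were Kif5a (log2 ratio -0.50), Dctn1 (-0.29) and Klc1 (-0.27). Kif5a was 1.42-fold lower, and 1.06% of names had a ratio as low.

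Kif5c (-0.21), Dync1i1 (-0.19), Dync1h1 (-0.17) and Kif1a (-0.10) were lower by smaller amounts, and Kif1b (-0.06), Kif5b (-0.06) and Kif3a (0.04) were closest to their level in G93A vehicle. The difference between SD ratios, G93A minus WT on the log2 scale, was -0.52 for Kif5a, -0.29 for Kif5c and -0.28 for Dctn1, and between -0.17 and -0.02 for the other 7. With 1 library each, none of these differences could be tested. Each of the 4 comparisons shares a library with 2 of the others, so that they are not independent.

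Members of a family did not differ alike. The 3 kinesin-1 heavy chains summed to 445 and 462 RPKM in WT with vehicle and SD, and to 314 and 258 RPKM in G93A. The share of Kif5a in this sum was 42.3%, 41.1%, 42.9% and 36.7%, while that of Kif5b was 25.2%, 25.7%, 27.1% and 31.7%. The lower share of Kif5a was thus seen in G93A + SD and not in G93A vehicle. The share of Kif5c stayed between 30.0% and 33.2%.

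The 2 intermediate chains of dynein differed more. Dync1i2, the chain found in most cell types, was at 61.5, 62.2, 62.0 and 64.0 RPKM, almost the same in all libraries, while Dync1i1 was lower in both G93A libraries. Dync1i1 made up 46.4% and 45.5% of their sum in WT, and 35.9% with vehicle and 32.2% with SD in G93A. In kinesin-2, Kif3b, the usual partner of Kif3a, was at 10.7, 11.3, 11.6 and 11.7 RPKM. Its share of the 3 motor subunits was 12.5%, 12.7%, 17.9% and 18.3%, and that of Kif3a was 43.9%, 44.3%, 39.8% and 41.8%. Klc1 kept a share of the 4 light chains between 64.6% and 67.9%, and Klc2 was lower in G93A too, at 75.7, 74.8, 50.2 and 39.3 RPKM.

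**Figure D3:**
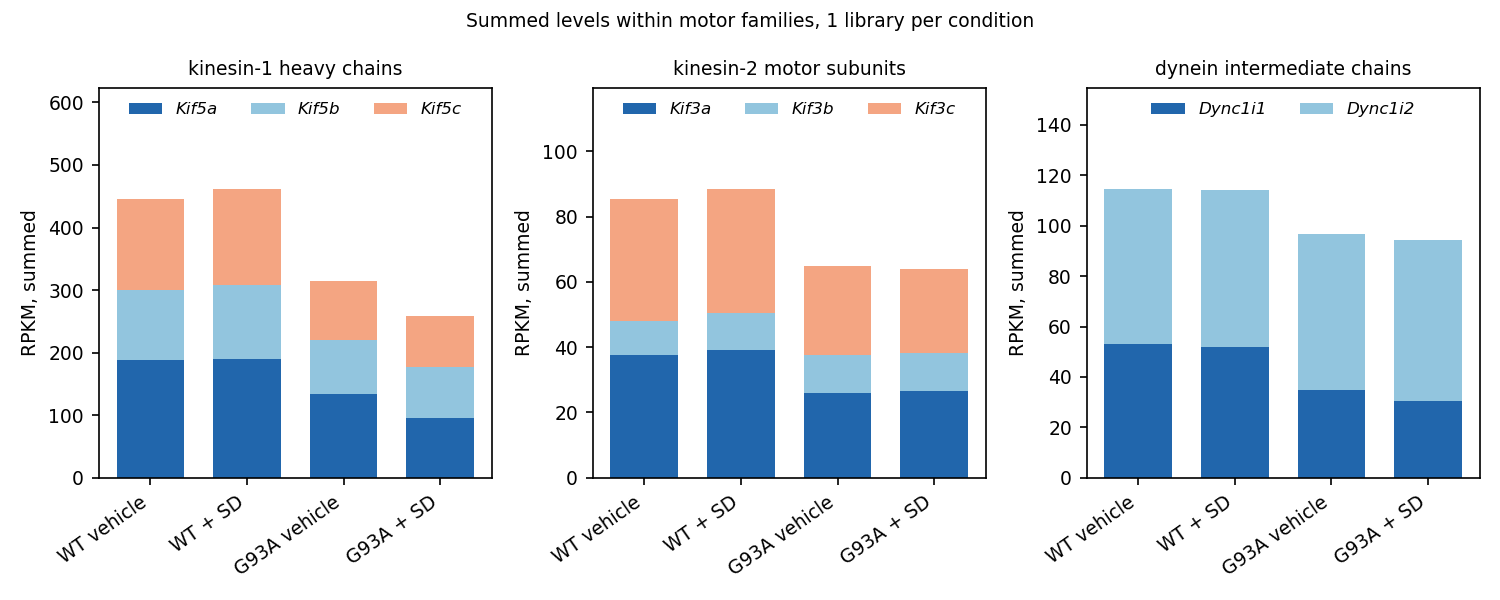
RPKM summed over the heavy chains of kinesin-1, the motor subunits of kinesin-2 and the intermediate chains of dynein, 1 stacked bar per library starting at 0. Dync1i2 keeps its height in all 4 bars while Dync1i1 is shorter in G93A, and the kinesin-1 bar is 445 RPKM high in WT vehicle and 258 in G93A + SD.

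The transcript rows of a gene gave like ratios. For Kif5a, the row of 6295 bases was at 228, 229.8, 167 and 120.4 RPKM and the row of 3996 bases at 149, 150.5, 102 and 69.4 RPKM. Both rows were lower in G93A vehicle than in WT vehicle, with log2 ratios of -0.45 and -0.55, and in G93A + SD than in WT + SD, with -0.93 and -1.12. For Kif1b, the row of 5992 bases was at 161, 167, 123 and 118 RPKM and the row of 6991 bases, with 21 exons, at 31.1, 34.0, 22.6 and 22.0 RPKM. The log2 ratios of its rows were -0.38 and -0.46 with vehicle and -0.50 and -0.63 with SD. The 3 rows of Klc1 lay between -0.38 and -0.36 and between -0.56 and -0.53, and the 2 rows of Kif1a and the 5 of Dync1i1 gave the ratios of their means. Rows of a gene share exons, and so can share reads.

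The members lie on 8 chromosomes of GRCm38 (GENCODE M21), and all are protein coding. Of the minus-strand genes, Kif1a lies at chr1:93015464-93101951, Kif1b at chr4:149176319-149307693 and Kif5b at chr18:6201002-6242174, and Kif3a is on the plus strand at chr11:53567379-53601967. Kif5a is at chr10:127225696-127263348 on the minus strand, Kif5c at chr2:49619298-49774778 on the plus strand, and Dync1i1 and Dctn1 both on the plus strand of chromosome 6, at chr6:5725639-6028039 and chr6:83165920-83200117. Klc1 (chr12:111758849-111807844) and Dync1h1 (chr12:110601452-110666945) lie on the plus strand of chromosome 12. The exons of Klc1 overlap Xrcc3 on the other strand, those of Dync1h1 overlap Gm17111 and Gm35558, and those of Kif5b overlap AC113003.1 and Gm17036. Whether strand was used in counting is not given in the sources used here, so reads of these 3 members and their partners cannot be told apart where they overlap. Of all windows of 53 bases, the read length, 4.06% of Kif5b, 2.46% of Dync1h1, 1.19% of Kif3a and 0.401% of Dctn1 are found again in another gene's transcripts, and for the other 6 members no window is.

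The rest of the transport machinery was read from lists. Of 22 other kinesin subunits, 14 were lower and 8 higher in G93A with vehicle, with a median log2 ratio of -0.17. In G93A + SD against WT + SD, 11 were lower and 11 higher, with a median of -0.06. Over the 20 with a mean of 1 RPKM or more, the medians were -0.19 and -0.18. Klc2, a light chain, had log2 ratios of -0.59 and -0.93 in the 2 genotype comparisons (12.4% of its windows occur in other genes), and Kif21a, an anterograde kinesin that limits microtubule growth, had log2 ratios of -0.45 and -0.65. Kifc3, a minus-end kinesin, was at 17.5, 17.1, 13.2 and 20.95 RPKM, with its highest level in G93A + SD. Klc3, a light chain of low level, was at 1.81, 1.67, 1.62 and 2.88 RPKM. Up to 23.6% of the windows of Kifc3 and 19.3% of those of Klc3 occur in other genes.

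Other dynein and dynactin subunits went both ways. Of 12 other dynein subunits with a value in either vehicle library, 6 were lower and 6 higher in G93A vehicle, with a median log2 ratio of -0.11. Over the 10 with a mean of 1 RPKM or more, 6 were higher and 4 lower with vehicle (median 0.00), and 4 were higher and 6 lower with SD (-0.08). The light chain genes Dynll2 and Dynll1 had log2 ratios of -0.34 and 0.35 with vehicle and of -0.45 and 0.07 with SD. Dync2h1, the heavy chain of the cilium's dynein, had -0.49 and -0.45. Dync2li1, a light intermediate chain of the same motor, was at 6.43, 6.29, 8.42 and 9.65 RPKM, and Dynlrb2, a roadblock light chain, at 1.63, 2.04, 2.96 and 3.36 RPKM, both higher in G93A. Of 11 other dynactin subunits, 8 were lower and 3 higher, with a median of -0.04, so that Dctn1 (-0.30) lay below most of its complex. Dctn2, the dynamitin subunit, was at 76.6, 73.0, 75.1 and 70.4 RPKM, and Dctn3 at 29.6, 29.8, 22.2 and 20.2 RPKM. Capza1, an actin-capping subunit, was at 7.90, 4.71, 4.25 and 8.02 RPKM, out of step with genotype, and 76.6% of its windows occur in other genes.

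Regulators and cargo adaptors were lower with the motors, by smaller amounts. Of 29 genes, 27 were lower in G93A vehicle, with a median log2 ratio of -0.20, and none was lower by 1.5-fold, compared to 3.80% of names at 5 RPKM or more. In G93A + SD against WT + SD, 26 were lower, with a median of -0.29, and 3 of 29 were lower by 1.5-fold, a share close to the 7.79% of names. These were Rab3a, a GTPase of synaptic vesicles, at 223, 214, 155 and 129 RPKM, Bicd1, a dynein adaptor, at 6.49, 6.89, 4.64 and 4.39 RPKM, and Rab27b, a GTPase of secretory vesicles, at 6.44, 6.66, 4.30 and 4.19 RPKM.

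Of 27 genes for the microtubule tracks, 16 were lower in G93A vehicle (median log2 ratio -0.06) and 18 in G93A + SD against WT + SD (-0.19). At 1.5-fold, 3 of the 27 were lower with vehicle and 5 with SD, compared to 10.5% and 12.8% of all names. At 5 RPKM or more, 3.80% and 7.79% of names were lower by that much. Of those that reached 1.5-fold in a comparison, the 4 most abundant were lower in G93A. Stmn1, not among these 4 and named after its values had been seen, had the lowest log2 ratios of the list, -1.24 and -1.54. The microtubule-associated proteins Mtap1b and Mtap1a were at 204, 197, 127 and 106 RPKM and at 153, 151, 101 and 79.8 RPKM. The microtubule destabiliser Stmn3 was at 318, 299.8, 231 and 183 RPKM, and the alpha-tubulin Tuba4a, of whose windows 48.5% occur in other genes, at 171, 167, 119 and 90.3 RPKM. The beta-tubulin Tubb2b, the 1 track gene higher by 1.5-fold, named after its values had been seen, was at 46.0, 42.1, 70.3 and 75.7 RPKM. In G93A with SD against vehicle 22 of the 27 were lower, with a median of -0.13, beside the motors' -0.18.

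The markers of cell types moved with genotype as well. Of 18 pan-neuronal markers, 17 were lower in G93A vehicle than in WT vehicle, with a median log2 ratio of -0.47 beside the motors' -0.42, and 17 in G93A + SD than in WT + SD, with -0.50 beside -0.55. Their summed level was 3056 and 3070 RPKM in the WT libraries and 2154 and 1921 in the G93A libraries. The 5 neurofilament genes, the intermediate filaments of large axons, were all lower, with medians of -0.82 and -1.36, and in G93A also with SD against vehicle, with -0.56. Of 12 motor neuron markers, 10 were lower in each genotype comparison, with medians of -0.51 and -0.90, and 9 with SD in G93A, with -0.45. Over the 7 with a mean of 1 RPKM or more, the medians were -0.36, -0.69 and -0.44. Prph is in both the motor neuron and the neurofilament list. Chat, which makes acetylcholine, was at 9.83, 8.57, 6.55 and 4.33 RPKM. Kif5a, with -0.50 for SD in G93A, thus lay beside the motor neuron and neurofilament medians in that comparison, and the median of the 10 motors nearer to the pan-neuronal -0.13.

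Markers of glia went both ways. Of 12 microglia and macrophage markers, all 12 were higher in G93A vehicle, with a summed level of 93.5 and 85.1 RPKM in the WT libraries and of 1039 and 1011 RPKM in those of G93A. Of 8 astrocyte markers, 6 were higher, and the sums were 1485, 1426, 3857 and 4620 RPKM. Of 8 oligodendrocyte markers, 7 were lower, with a median of -0.22 and sums of 8906, 9151, 7253 and 6651 RPKM. No marker of the neuron or glia lists was at 0 in any library. The part of these markers in the motors' ratios was not tested.

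**Figure D4:**
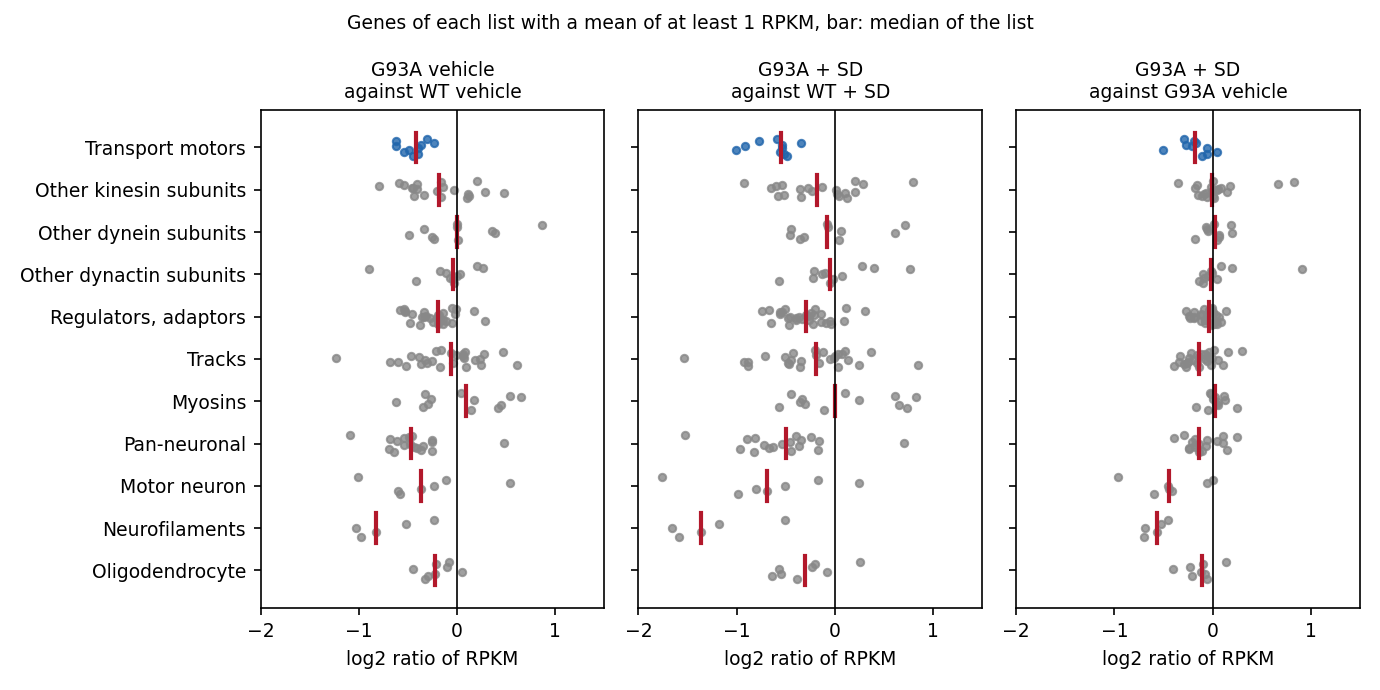
Log2 ratio of RPKM for the genes of each list whose mean reached 1 RPKM, 1 point per gene, with their median as a bar, in 3 comparisons, so that 7 of the 12 motor neuron markers are shown, with medians of -0.36, -0.69 and -0.44. The motors (blue) have medians of -0.42, -0.55 and -0.18, near those of the pan-neuronal markers (-0.47, -0.50 and -0.13) and above those of the neurofilaments (-0.82, -1.36 and -0.56).

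The gene names whose pattern was most like the motors' median pattern were sought among the 8847 names, by the largest difference over the 4 libraries in log2 level around its own mean. The nearest were Kif3c (0.01), a kinesin-2 subunit at 37.3, 38.1, 27.5 and 25.5 RPKM, and Dctn3 (0.02), the dynactin subunit above. Atrnl1, Sept6 and Snap91, the last a coat protein of synaptic vesicle recycling, followed, at 0.02 each. For Kif5a, taken as a target after its values had been seen, the nearest was Hapln4, a link protein of perineuronal nets, at 52.1, 54.0, 37.4 and 26.9 RPKM, at 0.02. Ttbk1, Sqle, Fa2h and Fam57b came next, at 0.04 each. With only 4 libraries, many names share a pattern.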

How the data were processed

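Lumbar spinal cord RNA of 4 conditions was compared, 1 library each, grouped by the sample titles. According to the methods, polyadenylated RNA was read as 53 base reads, aligned with STAR to GRCm38 (mm10) and counted per gene by HTSeq with Ensembl models. RefSeq transcripts fill the 23750 rows of the deposited table, and the values the authors deposited were taken as RPKM, inferred from the values, since no source used here names the unit or the step that made them. The authors' ratio columns hold their own comparisons and were not used.

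Rows of a name were averaged and ratios taken with no pseudocount, in Python 3.11.15 with numpy 2.4.6 and pandas 2.3.3, and figures were drawn with matplotlib 3.10.9. A difference was called at 1.5-fold, the fold used in the study. The ratio script was tested on simulated data. Depth was estimated from the commonest low value of each library times transcript length, assumed to be 1 pair, so it is approximate, and no interval was derived from it. Transcript lengths were found for 23026 rows (97.0%).

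The members and lists were chosen with earlier results of these data known. Named list genes had a mean of at least 1 RPKM and reached 1.5-fold in any comparison, at most 4 a list, or else were the 2 most abundant. Other subunits of a member's family or complex and single markers were named after their values had been seen. Dynlt1 and Rbfox3 were not matched in the table. Map genes were matched by their older symbols (Mtap). Alternatives were median-ratio scaling, pseudocounts of 0.1 and 1, minimum means of 1 and 5 RPKM, the highest row or the sum of rows, and thresholds of 1.2-fold and 2-fold.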

Additional observations from a re-analysis of the deposited data

Results flagged for a closer look

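Of the motors, 4 had SD ratios of opposite sign in WT and G93A. On the log2 scale these were 0.01 in WT and -0.50 in G93A for Kif5a, 0.08 and -0.21 for Kif5c, 0.08 and -0.06 for Kif5b, and 0.06 and -0.06 for Kif1b. The other 6 had the same sign in both. With 1 library per condition, the difference was not tested.

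Of the 20 list genes named by rule, those with opposite signs for SD in WT and then in G93A follow, again not tested. Among kinesin subunits the log2 ratios were 0.03 and -0.18 for Kif21a, -0.04 and 0.66 for Kifc3, and -0.12 and 0.84 for Klc3. For the kinesins of dividing cells they were -0.12 and 0.02 for Kif22 and -0.27 and 0.15 for Kif18a. For subunits of dynein and dynactin they were -0.03 and 0.20 for Dync2li1 and -0.74 and 0.92 for Capza1. The adaptor Bicd1 had 0.09 and -0.08, and Rab27b 0.05 and -0.04. The myosins had -0.15 and 0.06 for Myo1e, -0.14 and 0.03 for Myo9b, and -0.07 and 0.25 for Myo1c. Other list genes named in the text with opposite signs were Kif3c (0.03 and -0.11), Dctn3 (0.01 and -0.14), Dynll1 (0.24 and -0.05), Dynll2 (0.06 and -0.05), Stmn1 (0.06 and -0.24), Tubb2b (-0.13 and 0.11), Myo1d (0.05 and -0.17), Myo16 (0.10 and -0.01) and Myo5b (-0.21 and 0.06). Of the genes named for a like pattern, Hapln4, Snap91, Fa2h, Fam57b and Atrnl1 were also higher with SD in WT and lower with SD in G93A.

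For genotype, 3 genes had opposite signs with vehicle and with SD, namely Kifc3 (-0.41 and 0.29), Klc3 (-0.17 and 0.79) and Capza1 (-0.89 and 0.77). These differences were not tested either, and all 3 share read windows with other genes.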

How the results depend on the processing

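No ratio of the 10 members or of the 20 list genes named by rule changed sign under any alternative, and other genes named in the text were not run through them. The members' median log2 ratio stayed between -0.49 and -0.42 for G93A vehicle against WT vehicle, between -0.61 and -0.54 for G93A + SD against WT + SD, between -0.01 and 0.00 for SD in WT and between -0.19 and -0.18 for SD in G93A. Counts of members depended on the threshold. At 2-fold, 0 members were lower in the first comparison and 1, Kif5a, in the second. At 1.2-fold there were 9 and 10, and 3 for SD in G93A. Median-ratio scaling raised the count in the second comparison from 4 to 8, since Kif1b (-0.59), Kif3a (-0.62), Kif5b (-0.60) and Klc1 (-0.61) then passed, and in the first from 2 to 3, with Kif3a at -0.60, and a pseudocount of 1 RPKM took Dctn1 (-0.57) below 1.5-fold. Of 360 single ratios of members, 333 kept their side of the threshold, 21 passed it and 6 lost it. Of 720 ratios of other named genes, 655 kept their side. Each alternative was read at its own threshold, so these counts include ratios that changed side only because the threshold was moved to 1.2-fold or 2-fold. No paired analysis was possible because each condition has 1 library. No library could be left out for the same reason. Depth does not limit the members, and the lack of replicates does.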

Other observations

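Kinesins of cell division were higher in G93A. With vehicle, all 13 kinesins of dividing cells were higher in G93A than in WT, 10 of them by at least 1.5-fold, with a median log2 ratio of 1.44, compared to 20.7% of all names that were higher by that much. With SD, 13 of 13 were higher as well, with a median of 1.36. Their levels were low, with a sum of 6.38 RPKM (vehicle) and 6.27 (SD) in WT and 11.8 and 11.97 in G93A, and 3 of the 13 had a mean of at least 1 RPKM. Over these 3, the median was 0.57 with vehicle, with 1 at 1.5-fold, and 0.71 with SD, with 2 at 1.5-fold, so the larger medians rest on genes of very low level. Kif22, which moves chromosomes, was at 1.14 RPKM in WT, 1.05 with SD, and in G93A at 1.70 and 1.73, and Kif18a, which sets the length of spindle microtubules, at 0.67, 0.56, 1.44 and 1.60 RPKM in the same order.

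Of 12 myosins, the actin motors, 7 were higher and 5 lower in G93A with vehicle, with a median of 0.09, and with SD 6 were higher and 6 lower, with -0.00. With vehicle, 1 of the 12 was higher by at least 1.5-fold and 1 lower, compared to 20.7% and 10.5% of all names. At 5 RPKM or more, these shares of names were 10.2% and 3.80%. With SD, 4 were higher by at least 1.5-fold and 0 lower, compared to 23.8% and 12.8% of all names, and to 12.4% and 7.79% of names at 5 RPKM or more. Myo9b was at 6.38, 5.77, 10.03 and 10.2 RPKM, Myo1e at 7.98, 7.19, 10.9 and 11.3, Myo10 at 4.20, 4.34, 6.09 and 6.62, and Myo1c at 2.92, 2.78, 3.90 and 4.63. Among the lower ones, named after their values had been seen, Myo5a, which carries vesicles on actin, had log2 ratios of -0.30 and -0.31 with vehicle and SD, Myo1d -0.35 and -0.57, Myo16 -0.33 and -0.45, and Myo5b -0.62 and -0.35.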
